A study of Homo sapiens with 6 samples.

Results

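The BCL2 family comprises the proteins that set the threshold for apoptosis at the mitochondrial outer membrane. Its transcripts were followed in TC32, an established Ewing sarcoma cell line, after transfection with 1 of 3 siRNAs. The members were taken by gene symbol: BCL2, BCL2L1, BCL2L2, MCL1, BAX, BAK1, BBC3, PMAIP1, BCL2L11 and BID, 10 of the 26931 gene symbols in the files. Each stood on a single row with a good status in every library, and all 10 passed the filter on low values. The choice of symbols did not use the measured values, but it was made with earlier results of these data known.

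Ewing sarcoma cells typically carry a fusion of EWSR1, an RNA-binding protein gene, with FLI1, an ETS transcription factor gene. One group received the control siRNA siNeg, another siEWSR1 against EWSR1 and the remaining one siFLI1 against FLI1, with 2 libraries per group and 6 in all. All cells were TC32 grown in serum-supplemented medium and were harvested 48 h after transfection, so every value comes from 1 line at 1 time. Nothing in the labels states that the replicates came from separate cultures. The p-values therefore describe the spread among these libraries alone, and that spread may be technical.

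Proteins of the family share short BCL2 homology (BH) regions and fall into 3 classes. BCL2, BCL-XL (from BCL2L1), BCL-W (from BCL2L2) and MCL1 hold apoptosis back by binding the pro-apoptotic members. BAX and BAK, the effectors, oligomerize in the outer membrane and release cytochrome c, which activates caspases. The BH3-only proteins PUMA (from BBC3), NOXA (from PMAIP1), BIM (from BCL2L11) and BID respond to stress signals and either occupy the anti-apoptotic proteins or activate the effectors directly. NOXA binds mainly MCL1, whereas BIM and PUMA bind all the anti-apoptotic members named here.

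The libraries were of similar depth, since the width of the deposited 95% intervals corresponds to 15159073 to 16298374 fragments, and 12079 to 12741 genes reached 1 FPKM. FPKM is the number of fragments per kilobase of transcript, scaled to the mapped fragments of the library, so levels of different genes may be set side by side. EWSR1 stood at 46.5 and 47.2 FPKM with siNeg, 34.6 and 32.3 with siEWSR1, and 51.2 and 50.2 in the siFLI1 libraries. FLI1 stood at 10.9 FPKM in each control, at 10.4 and 10.6 with siEWSR1, and at 8.98 and 8.56 with siFLI1. Both genes' values add normal and fusion transcripts, and the siRNA target regions are not stated. The Ewing sarcoma markers CD99, NKX2-2, NR0B1, STEAP1 and LIPI were present in all libraries, together at 591.5 to 627.5 FPKM with siNeg, 334.9 to 405.7 with siEWSR1 and 371.4 to 403.2 with siFLI1. This sum moved with the groups, and its part in the results was not tested. Markers of other cell types were near 0: 3 of blood cells summed to 0.0118 to 0.189 FPKM over all libraries (CD3E at 0 in each), 3 of endothelium to 0.181 to 0.365, and 3 of epithelium to 0.955 to 1.22, mostly KRT8.

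The members that changed most were 2 of the BH3-only class, in opposite directions. With either siRNA PMAIP1 fell, from a mean of 32.8 FPKM to 7.42 with siEWSR1 and 8.42 with siFLI1, and BCL2L11 rose, from 1.15 FPKM to 4.84 and 5.15. BCL2L1 and BAX rose and BCL2L2 fell with both siRNAs by smaller amounts. A gene is called here when its adjusted p was under 0.05 in limma, fitted to log2(FPKM + 0.5) over the 13043 genes that reached an FPKM of 1 in at least 2 libraries. With siEWSR1, 3 members were called higher and 3 lower, against 33.2% and 31% of all tested genes. With siFLI1, 4 were called higher and 2 lower, against 35.7% and 29.6%. Called with both siRNAs were 3 members as higher and 2 as lower, against 29.9% and 26.2%. The libraries did not overlap siNeg for 5 members above and 3 below it with siEWSR1 (42.6% and 40.7% of tested genes) and for 6 above and 2 below it with siFLI1 (45.6% and 39.1%). So large a part of the transcriptome was called that the number of members called is near this background, and the sizes of the changes carry more than the count. The median log2 change of the 10 members was 0.08 with siEWSR1 and 0.18 with siFLI1, against 0.0071 and 0.041 over all tested genes. In RNA from whole cultures, fewer cells of a type and less RNA per cell cannot be told apart.

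**Figure D1:**
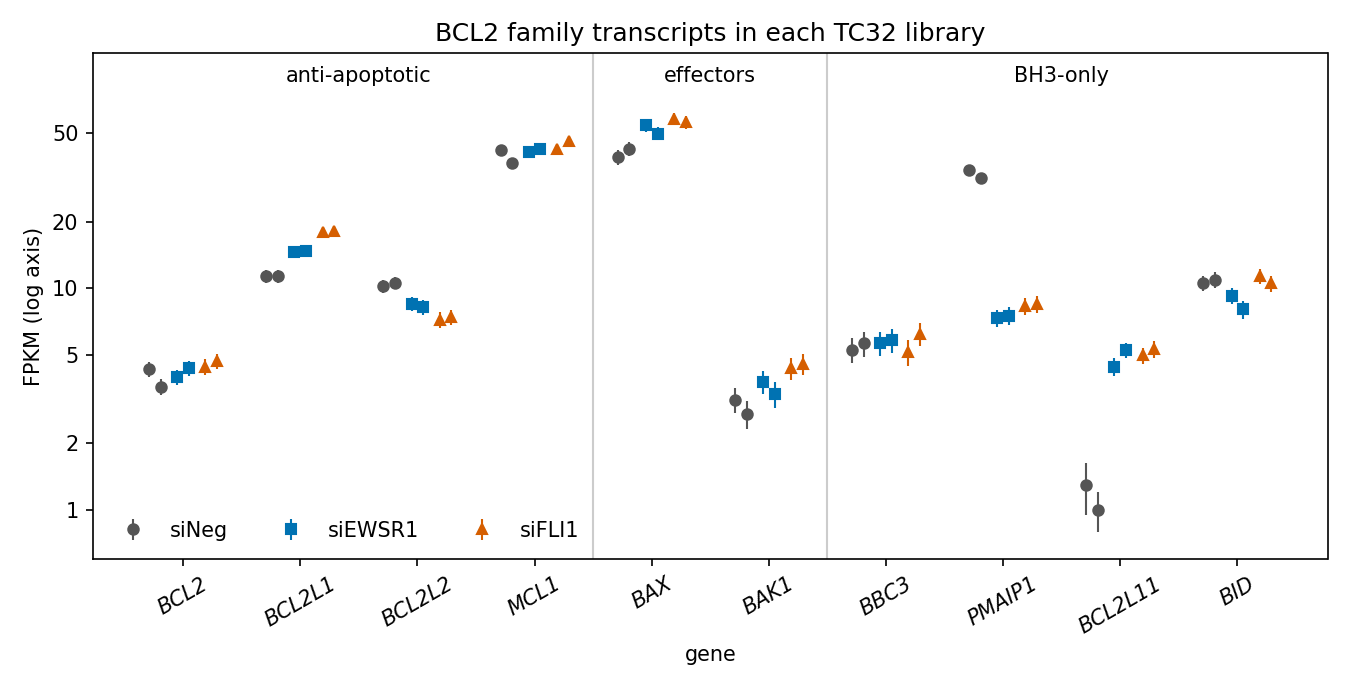
FPKM (log axis) of the 10 BCL2 family genes, ordered by role, in each library of siNeg (circles), siEWSR1 (squares) and siFLI1 (triangles). Bars are the deposited 95% intervals. The PMAIP1 values of both knockdown groups lie far below the siNeg values of 31.5 and 34.2, and the BCL2L11 values lie above the siNeg values of 1.01 and 1.29.

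In the control cells the family spanned a wide range of levels. BAX was the most abundant at a mean of 40.7 ± 2.47 FPKM (SD, n = 2), followed by MCL1 at 39.5 ± 3.88, and the libraries of these 2 genes overlapped. PMAIP1 came next at 32.8 ± 1.94 FPKM, apart from MCL1 and from the genes below. BCL2L1 stood at 11.4, BID at 10.7 and BCL2L2 at 10.4 FPKM, and the last 2 overlapped. BBC3 (5.47 FPKM), BCL2 (3.96), BAK1 (2.93) and BCL2L11 (1.15) were lowest, with no overlap between neighbours. MCL1 was therefore the leading anti-apoptotic transcript, BAX the leading effector and PMAIP1 the leading BH3-only transcript among the 10 members in control cells.

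The order was different after knockdown. BAX and MCL1 remained first and second in both knockdown groups, now without overlap, and BCL2L1 moved to the third place that PMAIP1 had held. PMAIP1 was the sixth gene with siEWSR1 and the fifth with siFLI1. BCL2L11, the last gene with siNeg, passed BCL2 and BAK1 in both knockdown groups and overlapped BBC3 with siFLI1. BAK1 was then last, apart from BCL2 with siEWSR1 and overlapping it with siFLI1.

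Among the anti-apoptotic genes, BCL2L1 rose and BCL2L2 fell, and neither MCL1 nor BCL2 was called. BCL2L1 (hg19, chromosome 20, 30252255 to 30311802) encodes BCL-XL and, by alternative splicing, a shorter pro-apoptotic protein that gene-level values do not separate. It read 11.4 FPKM in each control, 14.6 and 14.7 with siEWSR1, and 17.9 and 18.2 in the siFLI1 libraries. The 3 groups did not overlap, and siFLI1 was highest. The log2 change was 0.35 ± 0.05 with siEWSR1 (SE, adjusted p = 0.00122) and 0.64 ± 0.05 with siFLI1 (adjusted p = 8.85e-05), folds of 1.28 and 1.56. The non-coding gene ABALON lies within the BCL2L1 locus and read 0.681 to 1.38 FPKM over the 6 libraries, and without a stated strand setting its reads cannot be told apart from those of BCL2L1.

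BCL2L2 (chromosome 14, 23775971 to 23780968), the gene of BCL-W, moved the other way. It read 10.2 and 10.6 FPKM with siNeg, 8.51 and 8.23 with siEWSR1, and 7.23 and 7.40 with siFLI1, again in 3 groups without overlap. Its log2 change was -0.29 ± 0.06 with siEWSR1 (adjusted p = 0.00473) and -0.48 ± 0.06 with siFLI1 (adjusted p = 0.000545). The whole BCL2L2 locus lies inside that of the read-through gene BCL2L2-PABPN1, and how their shared reads were divided is not stated. BCL2L2-PABPN1 read 20.9 and 21.9 FPKM with siNeg, 16.6 and 22.5 with siEWSR1, and 17.2 and 19.2 in the siFLI1 libraries. Its log2 changes of -0.14 and -0.23 were not called (adjusted p = 0.393 and 0.182).

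MCL1 (chromosome 1, 150547027 to 150552214) encodes a short-lived protein that many tumour cells depend on. It read 42.2 and 36.7 FPKM with siNeg, 41.0 and 42.5 with siEWSR1, and 42.5 and 46.1 in the siFLI1 libraries. The siNeg libraries differed from each other by more than the group means did, siEWSR1 overlapped siNeg, and both siFLI1 libraries lay just above it. The log2 change was 0.08 with siEWSR1 (95% interval -0.11 to 0.28, adjusted p = 0.395) and 0.17 with siFLI1 (-0.03 to 0.36, adjusted p = 0.112). MCL1 was called higher under quantile normalization (0.22 with siEWSR1, adjusted p = 0.0391, and 0.25 with siFLI1, adjusted p = 0.0267) and, with siFLI1, without siNeg replicate 1 (0.27, adjusted p = 0.0416).

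BCL2 (chromosome 18, 60790579 to 60986613), the founding member of the family, was a minor transcript in TC32 cells. It read 4.31 and 3.61 FPKM with siNeg, 3.99 and 4.37 with siEWSR1, and 4.42 and 4.69 with siFLI1. Both siFLI1 libraries were above both siNeg libraries, and siEWSR1 overlapped siNeg. Its log2 change was 0.07 with siEWSR1 (95% interval -0.16 to 0.31, adjusted p = 0.54) and 0.18 with siFLI1 (-0.05 to 0.42, adjusted p = 0.139).

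Both effectors were higher after knockdown, although BAK1 with siEWSR1 missed the threshold. BAX (chromosome 19, 49458117 to 49465055) read 39.0 and 42.5 FPKM with siNeg, 54.3 and 49.8 with siEWSR1, and 58.0 and 56.0 with siFLI1. All 4 knockdown libraries lay above both controls. The log2 change was 0.35 ± 0.07 with siEWSR1 (adjusted p = 0.00428) and 0.48 ± 0.07 with siFLI1 (adjusted p = 0.00104), folds of 1.28 and 1.40.

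BAK1 (chromosome 6, 33540323 to 33548070) was the much lower effector, and BAX made up 92.5% to 94% of the summed effector level in every library. BAK1 read 3.15 and 2.71 FPKM with siNeg, 3.80 and 3.33 with siEWSR1, and 4.35 and 4.56 with siFLI1. All 4 knockdown values were above both controls here too, with siFLI1 highest. With siFLI1 BAK1 rose by 0.53 ± 0.10 on the log2 scale (adjusted p = 0.00325). With siEWSR1 the log2 change was 0.25 ± 0.10 and was not called (limma, adjusted p = 0.0648). This change depended on the processing. It was called with median-ratio scaling (0.27, adjusted p = 0.0414) and was 0.33 without siEWSR1 replicate 2. Under quantile normalization it shrank to 0.07 (adjusted p = 0.54).

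PMAIP1 (chromosome 18, 57567192 to 57571538), the gene of NOXA, had the largest change of the family on the log2(FPKM + 0.5) scale. It read 34.2 and 31.5 FPKM with siNeg, 7.33 and 7.51 with siEWSR1, and 8.34 and 8.50 in the siFLI1 libraries. The groups were far apart, the deposited 95% intervals of the siNeg libraries beginning at 30.1 FPKM and those of the knockdown libraries ending at 9.25. PMAIP1 fell by 2.07 ± 0.06 on the log2 scale with siEWSR1 (adjusted p = 4.40e-06) and fell by 1.90 ± 0.06 with siFLI1 (adjusted p = 3.89e-06). Of the 13043 tested genes, 37 fell further with siEWSR1 and 59 with siFLI1. In mean FPKM without the added 0.5, siNeg was 4.43 times siEWSR1 and 3.90 times siFLI1. By that measure BCL2L11 changed more than PMAIP1 with siFLI1, to 4.48 times siNeg.

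BCL2L11 (chromosome 2, 111878491 to 111926022), the gene of BIM, was the lowest member in control cells and rose. It read 1.29 and 1.01 FPKM with siNeg, 4.43 and 5.26 with siEWSR1, and 4.98 and 5.32 with siFLI1. All 4 knockdown libraries lay well above both controls. BCL2L11 rose by 1.70 ± 0.12 on the log2 scale with siEWSR1 (adjusted p = 6.33e-05) and by 1.78 ± 0.12 with siFLI1 (adjusted p = 4.43e-05). These folds of 3.24 and 3.44 are held down by the added 0.5, and mean FPKM was 4.21 and 4.48 times that of siNeg. It is also the member with the fewest implied fragments in the siNeg libraries, 59 and 94, against 475 to 2325 for PMAIP1 over all libraries. PMAIP1 and BCL2L11 are the only members that changed at least 2-fold, which 4.59% of tested genes did as lower and 7.91% as higher with siEWSR1, and 4.59% and 9.32% with siFLI1.

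The promoter windows of these 2 genes are shown because their transcripts moved the most and in opposite directions. Each window runs from 250 bases before to 50 bases after the RefSeq start (GRCh38.p14, plus strand), a different build from that of the files, and the motifs were chosen after the values were seen. Capitals mark a match to the cyclic-AMP response element half-site TGACGT, which ATF and CREB factors can bind, or to the forkhead motif TGTTTAC, which FOXO factors can bind.
PMAIP1, chr18:59899746-59900045: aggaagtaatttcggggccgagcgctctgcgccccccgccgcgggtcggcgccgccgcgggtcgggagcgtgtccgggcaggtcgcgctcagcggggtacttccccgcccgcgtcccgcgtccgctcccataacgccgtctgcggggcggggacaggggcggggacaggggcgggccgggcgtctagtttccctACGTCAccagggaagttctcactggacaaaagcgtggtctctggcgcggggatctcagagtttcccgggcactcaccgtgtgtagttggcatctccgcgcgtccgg
BCL2L11, chr2:111120664-111120963: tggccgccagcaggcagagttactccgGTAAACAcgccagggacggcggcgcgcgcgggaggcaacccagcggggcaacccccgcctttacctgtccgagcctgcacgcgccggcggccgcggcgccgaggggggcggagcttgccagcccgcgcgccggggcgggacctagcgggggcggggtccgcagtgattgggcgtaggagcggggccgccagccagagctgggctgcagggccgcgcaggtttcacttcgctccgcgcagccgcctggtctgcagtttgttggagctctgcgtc

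The half-site was found in the PMAIP1 window on the minus strand, 56 to 51 bases before the start, and in no other window of a member. The forkhead motif was found in the BCL2L11 window on the minus strand, 223 to 217 bases before the start, and again in no other. Both strands were searched. Of 35116 RefSeq promoter windows of the same length, 7.98% held the half-site and 3.42% the forkhead motif. GGAAGGAA, a tandem of the ETS core, was in 3.67% of all windows and in 0 of the 13 windows of members. Windows were matched for 8 of the 10 members, with 2 for BCL2L1 and 5 for BID, and BCL2L2 and MCL1 were not matched. A match is a description of the letters in the window.

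Of the remaining BH3-only members, BBC3 was not called and BID was called with siEWSR1. BBC3 (chromosome 19, 47724079 to 47736023), the gene of PUMA, read 5.30 and 5.65 FPKM with siNeg, 5.67 and 5.83 with siEWSR1, and 5.17 and 6.23 in the siFLI1 libraries. The siFLI1 libraries spanned the controls, and the siEWSR1 libraries were just above them. Its log2 changes were 0.07 with siEWSR1 (95% interval -0.16 to 0.30, adjusted p = 0.559) and 0.05 with siFLI1 (-0.18 to 0.28, adjusted p = 0.666).

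BID (chromosome 22, 18216906 to 18257431), which links caspase-8 at death receptors to mitochondria, read 10.5 and 10.9 FPKM with siNeg, 9.24 and 8.03 with siEWSR1, and 11.4 and 10.5 with siFLI1. Both siEWSR1 libraries were below all others, and siFLI1 overlapped siNeg. BID fell by 0.30 ± 0.08 on the log2 scale with siEWSR1 (adjusted p = 0.0177), and its change with siFLI1 was 0.03 (95% interval -0.17 to 0.23, adjusted p = 0.784). The siEWSR1 call was lost without siNeg replicate 1 (adjusted p = 0.059), siNeg replicate 2 (0.0877) or siEWSR1 replicate 2 (-0.20, adjusted p = 0.0728).

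**Figure D2:**
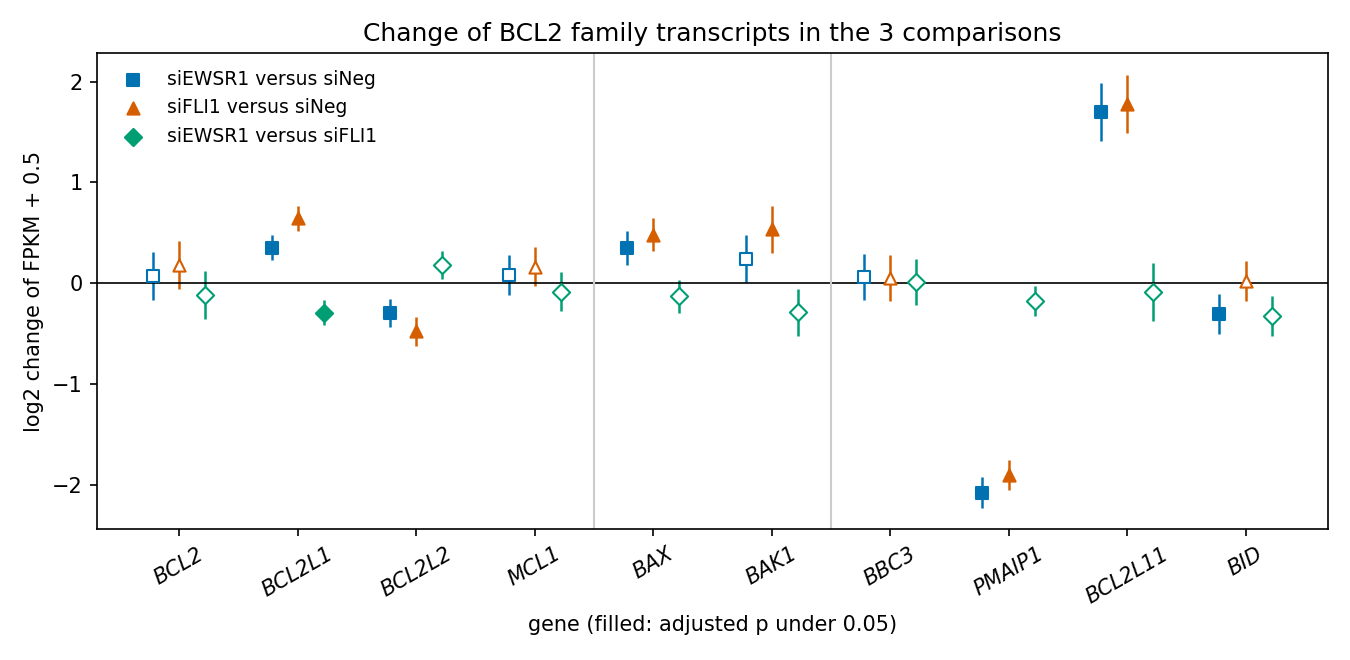
Change of each member on the log2(FPKM + 0.5) scale for siEWSR1 versus siNeg (squares), siFLI1 versus siNeg (triangles) and siEWSR1 versus siFLI1 (diamonds). Bars are 95% intervals from the limma fit and filled symbols are called. PMAIP1 (-2.07 and -1.90) and BCL2L11 (1.70 and 1.78) stand apart from the other members, and BCL2L1 (-0.29) is the only filled diamond.

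Summed by role, the 4 BH3-only members were lower after knockdown, and this direction turned when their relative BMF was added. The 4 members added up to 51.3 and 49.0 FPKM with siNeg, 26.7 and 26.6 with siEWSR1, and 29.9 and 30.6 with siFLI1. PMAIP1 supplied 64.2% to 66.6% of this sum with siNeg and 27.5% to 28.2% in the knockdown libraries. Without PMAIP1 the sum ran the other way, at 17.1 and 17.6 FPKM with siNeg, 19.3 and 19.1 with siEWSR1, and 21.5 and 22.1 with siFLI1. BID became the largest of the 4, from 20.5% to 22.3% of their sum with siNeg to 30.2% to 34.6% with siEWSR1 and 34.4% to 38.1% with siFLI1. BMF, a BH3-only gene outside the 10 members, brought the sum to 71.5 and 70.7 FPKM with siNeg, 77.4 and 79.8 with siEWSR1, and 78.8 and 82.7 with siFLI1. With BAD added as well it was 92.7 and 94.0 FPKM, then 112 and 103, and 116 and 122. These wider sums were chosen after the values were seen.

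The anti-apoptotic genes added up to 68.1 and 62.3 FPKM with siNeg, 68.1 and 69.8 with siEWSR1, and 72.1 and 76.4 with siFLI1. MCL1 supplied 58.9% to 62% of that sum over the 6 libraries. The sum leaves out the read-through gene BCL2L2-PABPN1 (16.6 to 22.5 FPKM). How its reads shared with BCL2L2 were divided is not stated, and the sum and the ratios to it may depend on that division. The effectors added up to 42.1 and 45.2 FPKM with siNeg, 58.1 and 53.1 with siEWSR1, and 62.3 and 60.5 with siFLI1, a class in which both knockdown groups lay above the controls. The ratio of the summed BH3-only members to the summed anti-apoptotic members was 0.754 and 0.787 with siNeg, 0.392 and 0.381 with siEWSR1, and 0.414 and 0.40 in the siFLI1 libraries. With BMF in the sum the ratio was 1.05 and 1.14 for siNeg, 1.14 and 1.14 for siEWSR1, and 1.09 and 1.08 for siFLI1, so the lower ratio after knockdown held for the 4 members alone. The ratio of MCL1 to its partner PMAIP1 was 1.23 and 1.17 with siNeg, 5.60 and 5.66 with siEWSR1, and 5.09 and 5.43 with siFLI1. These sums and ratios are descriptions of transcript levels without a test.

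**Figure D3:**
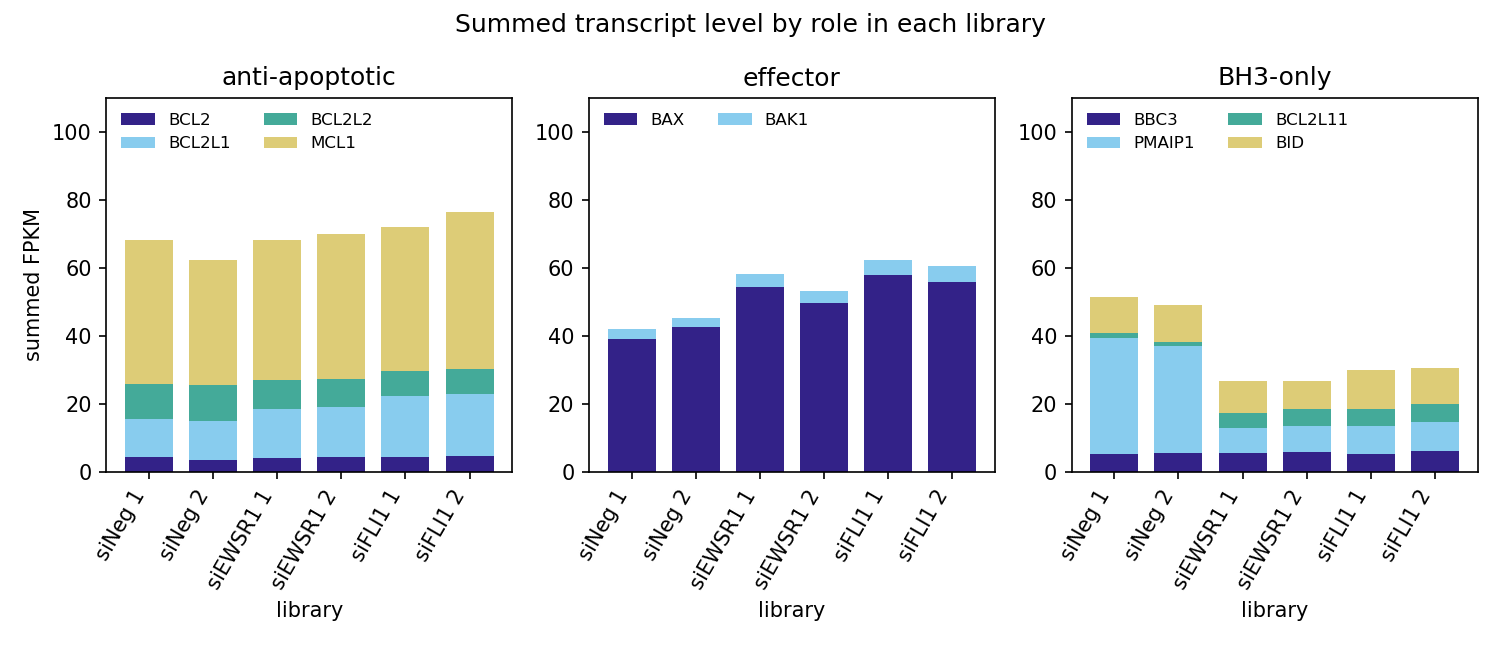
Summed FPKM of the anti-apoptotic, effector and BH3-only genes in each of the 6 libraries, each bar stacked by gene and starting at 0. The bars of the 4 BH3-only members are 49.0 and 51.3 FPKM with siNeg and 26.6 to 30.6 after knockdown, with the difference in the PMAIP1 segment.

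Compared directly, siEWSR1 and siFLI1 libraries differed in 1 member. BCL2L1 was lower with siEWSR1 than with siFLI1 by 0.29 ± 0.05 on the log2 scale (adjusted p = 0.038), in a comparison that called 0.79% of tested genes as higher and 3.07% as lower. The libraries did not overlap for 1 member higher and 6 lower with siEWSR1 than with siFLI1, against 20.1% and 32.9% of tested genes. Of the called genes 20.4% were higher with siEWSR1, against 37.9% under quantile normalization and 31% with median-ratio scaling. Leaving out any 1 of the 6 libraries ended the BCL2L1 call (adjusted p = 0.0657 to 0.226), although the change stayed between -0.30 and -0.28.

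The remaining members missed the threshold in the direct comparison. BID differed by -0.33 (95% interval -0.53 to -0.13, adjusted p = 0.0799) and was called without siEWSR1 replicate 1 (-0.42, adjusted p = 0.0486). BAK1 differed by -0.29 (-0.52 to -0.05, adjusted p = 0.147), BCL2L2 by 0.18 (0.04 to 0.32, adjusted p = 0.132) and BAX by -0.13 (-0.29 to 0.03, adjusted p = 0.308). For PMAIP1 the difference was -0.17 (-0.32 to -0.02, adjusted p = 0.169) and for BCL2L11 it was -0.08 (-0.37 to 0.20, adjusted p = 0.716), so differences up to these bounds between the siRNAs are within the precision of 2 libraries per group. Both siRNAs were set against the same siNeg libraries.

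For the member of each role with the largest mean absolute change over both siRNAs, the genes most like it were found by the distance between mean-centred log2 profiles over the 6 libraries, among 8617 tested genes on a single row with a mean FPKM of at least 5. Nearest to PMAIP1 were MTHFD2, a mitochondrial folate enzyme (distance 0.16), GARS, glycyl-tRNA synthetase (0.19), and CARS, cysteinyl-tRNA synthetase (0.19), against a median distance of 2.28 over the compared genes. MTHFD2 fell by 2.04 with siEWSR1 and by 2.00 with siFLI1 on the log2 scale, close to the PMAIP1 values. Nearest to BCL2L1 were OST4, a subunit of oligosaccharyltransferase, CAPNS1, the small calpain subunit, and GOLGB1, a Golgi protein (0.055 to 0.069, median 0.75). BAX was chosen over BAK1 by a mean absolute log2 change of 0.42 against 0.39, although BAK1 changed more with siFLI1. Nearest to BAX were FAM213B, LGALS3BP, a secreted galectin-binding glycoprotein, and LZTR1, an adaptor of a ubiquitin ligase (0.048 to 0.067, median 0.65). The distances rest on 6 libraries in 3 groups.

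Beyond the 10 members, 77 other apoptosis genes in 6 lists were read, of which 63 were tested. With siEWSR1 20 were called higher and 24 lower, and with siFLI1 22 and 23, against the background shares given above for all tested genes. Of the 63, 2 (TNFSF10 and FOXO1) were under 1 FPKM in both siNeg libraries. In the direct comparison of the siRNAs limma called 0 of the 63, against 0.79% of all tested genes as higher and 3.07% as lower. It called 1 to 3 of the 63 under some other settings. Small differences between the siRNAs may be missed with 2 libraries per group.

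Of 13 other BCL2 relatives, 7 were tested. With siEWSR1 2 rose and 2 fell (median log2 change -0.07), and with siFLI1 3 rose and 2 fell (median -0.05). BMF, a BH3-only gene whose protein is tethered to the cytoskeleton, rose with both siRNAs. BMF read 20.2 and 21.7 FPKM with siNeg, 50.7 and 53.1 with siEWSR1, and 49.0 and 52.1 with siFLI1, a level near that of BAX after knockdown and log2 rises of 1.29 ± 0.06 (adjusted p = 1.74e-05) and 1.25 ± 0.06 (adjusted p = 1.56e-05). BOK, an effector-like relative, rose by 0.91 and 1.18, from 2.81 and 2.71 FPKM to 5.57 and 5.69 with siEWSR1 and 6.97 and 6.80 with siFLI1. BNIP3 and BNIP3L, hypoxia-induced relatives that mark mitochondria for autophagy, fell: the log2 changes of BNIP3 were -1.41 ± 0.27 and -1.67 ± 0.27, and those of BNIP3L -0.53 and -0.55. BAD, looked up after its values were seen, was called with siFLI1 (0.76, adjusted p = 0.00711) and not with siEWSR1 (0.33, adjusted p = 0.121), whose libraries read 34.1 and 23.2 FPKM. BCL2A1, BCL2L10, BCL2L14, BCL2L15, BIK and HRK stayed below 0.29 FPKM in every library.

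**Figure D4:**
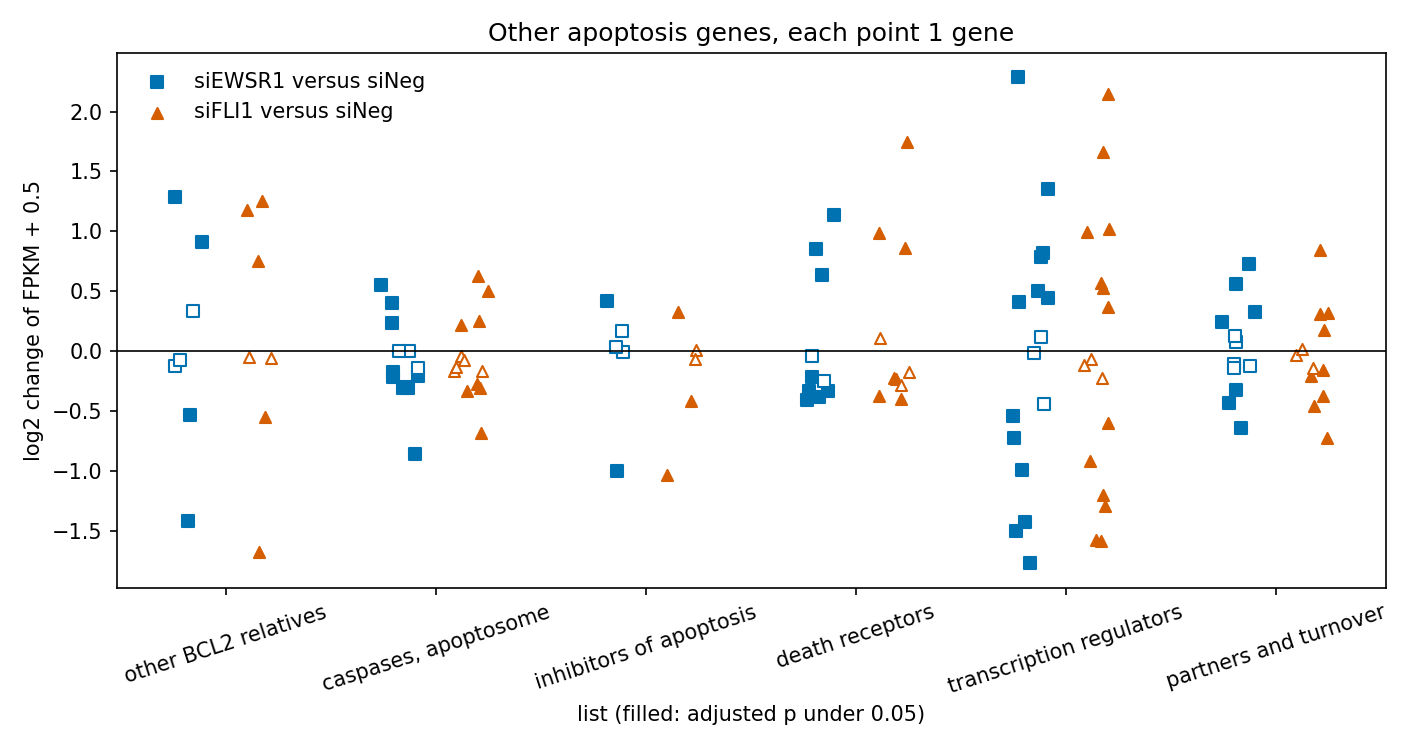
Change of each tested gene of the 6 apoptosis lists on the log2(FPKM + 0.5) scale, with siEWSR1 (squares) and siFLI1 (triangles) against siNeg, filled where called and spread sideways for legibility. With siEWSR1 the widest range is among transcriptional regulators, from DDIT3 (-1.77) to TP73 (1.36). FOXO1 (2.29) lies above this range and passed the filter only through the knockdown groups.

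Of 13 genes of the apoptosome, caspases and mitochondrial factors, 3 rose and 7 fell with siEWSR1 (median -0.18), and 4 rose and 4 fell with siFLI1 (median -0.13). CASP2 rose by 0.55 and 0.50 and CASP6, an executioner caspase, by 0.41 and 0.63. ENDOG, a mitochondrial nuclease, fell, with log2 changes of -0.86 ± 0.17 (adjusted p = 0.00516) and -0.68 ± 0.17 (adjusted p = 0.0131). APAF1, the apoptosome scaffold, and CYCS, cytochrome c, were looked up after their values were seen and stood at -0.20 and 0.0029 with siEWSR1 and at -0.16 and -0.17 with siFLI1, of which limma called the first alone.

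Of 7 inhibitor of apoptosis genes, 5 were tested. With siEWSR1 1 rose and 1 fell, and with siFLI1 1 rose and 2 fell (medians 0.04 and -0.07). BIRC5, the gene of survivin and also a mitotic gene, read 62.0 and 57.2 FPKM with siNeg, 32.2 and 27.2 with siEWSR1, and 30.3 and 27.4 with siFLI1, log2 changes of -0.997 ± 0.10 (adjusted p = 0.000229) and -1.03 ± 0.10 (adjusted p = 0.000172). XIAP, the direct caspase inhibitor, fell by 0.42 ± 0.11 with siFLI1 (adjusted p = 0.016), while with siEWSR1 the change was -0.01 (adjusted p = 0.956). The difference between the siRNAs, 0.41, was not called (adjusted p = 0.0958). NAIP was called higher (0.42 and 0.33), but it has near-identical copies in the genome whose reads cannot be told apart here.

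Of 14 death receptor pathway genes, 10 were tested, 3 higher and 5 lower with siEWSR1 (median -0.23) and 3 higher and 4 lower with siFLI1 (median -0.20). RIPK1, a kinase below TNF receptors, rose by 0.85 and 0.99. TNFSF10, the gene of the ligand TRAIL, went from 0.016 and 0.017 FPKM with siNeg to 0.58 and 0.70 with siEWSR1 and 1.34 and 1.13 with siFLI1. It passed the filter only through the siFLI1 libraries, so its place among the 3 called higher adds no support. The TRAIL receptor gene TNFRSF10B fell by 0.40 in both comparisons, from 46.5 and 44.2 FPKM to between 33.7 and 34.6, and FAS by 0.38 in both.

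The widest range of changes was among 17 transcriptional regulators of the family, 16 of them tested. With each siRNA 7 were higher and 6 lower (medians 0.05 and -0.09). FOXO1, a forkhead factor known to activate BCL2L11, read 0.919 and 0.959 FPKM with siNeg, 6.01 and 7.07 with siEWSR1, and 5.36 and 6.40 in the siFLI1 libraries, log2 changes of 2.29 and 2.14. FOXO1 was under 1 FPKM in both siNeg libraries and passed the filter only through the knockdown groups where it is high, so its call adds no support. TP73, a transcription factor, rose by 1.36 and 1.66, from 8.05 and 9.01 FPKM to 23.9 and 21.5 with siEWSR1 and 27.8 and 28.4 with siFLI1.

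DDIT3, the stress factor CHOP, fell, with log2 changes of -1.77 ± 0.07 (adjusted p = 7.48e-06) and -1.59 ± 0.07 (adjusted p = 8.34e-06), from 87.7 and 79.8 FPKM to 23.4 and 25.0 with siEWSR1 and 27.5 and 27.6 with siFLI1. ATF3, another stress factor, fell from 9.49 and 8.55 FPKM with siNeg to 2.89 and 2.85 with siEWSR1 and 3.46 and 3.84 with siFLI1. MYC, a growth-promoting factor, had log2 changes of -1.42 with siEWSR1 and -1.58 with siFLI1. The following were looked up after their values were seen. ATF4, a stress-induced factor reported to activate PMAIP1, read 288 and 262 FPKM with siNeg, 144 and 133 with siEWSR1, and 145 and 146 with siFLI1 (log2 changes -0.99 and -0.91, adjusted p = 5.58e-05 and 6.33e-05). MDM2, a ubiquitin ligase, rose by 0.79 and 1.02. These levels moved beside those of the members, and their part in the members' changes was not tested.

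Of 13 binding partners and turnover factors, 12 were tested, 4 higher and 3 lower with siEWSR1 (median -0.01) and 4 higher and 5 lower with siFLI1 (median -0.09). DYNLL1, a dynein light chain that binds BIM, rose by 0.73 and 0.84, from 188 and 186 FPKM to 313 and 308 with siEWSR1 and 334 and 336 with siFLI1. DYNLL2, the related chain that binds BMF, rose by 0.56 and 0.32. VDAC1 and VDAC2, channels of the mitochondrial outer membrane, fell, with log2 changes of -0.64 and -0.43 for siEWSR1 and of -0.72 and -0.46 for siFLI1. VDAC2 is known for holding BAK at mitochondria. HUWE1 and USP9X, which respectively add ubiquitin to and remove it from MCL1, were looked up after their values were seen and stood at -0.13 and 0.08 with siEWSR1 and at -0.21 and -0.03 with siFLI1, of which limma called HUWE1 with siFLI1.

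Some calls of list genes were lost when 1 library was left out, with the direction kept. FAS with siEWSR1 was not called without siNeg replicate 1 (adjusted p = 0.113) or siEWSR1 replicate 1 (0.0828), where its log2 change was -0.31 and -0.25, and with siFLI1 not without siNeg replicate 1 (0.115), siFLI1 replicate 1 (0.0891) or siFLI1 replicate 2 (0.0645). With siFLI1, ENDOG was not called without siNeg replicate 1 (0.0631), siNeg replicate 2 (0.0535) or siFLI1 replicate 2 (0.0796), XIAP not without siNeg replicate 1 (0.0795), siNeg replicate 2 (0.055) or siFLI1 replicate 1 (0.0899), and DYNLL2 not without siNeg replicate 2 (0.103) or siFLI1 replicate 2 (0.0953). In these siFLI1 fits the log2 change lay between -0.40 and -0.31 for FAS, between -0.70 and -0.50 for ENDOG and between -0.44 and -0.30 for XIAP, and was 0.28 and 0.21 for DYNLL2. The calls of PMAIP1, BCL2L11, BCL2L1, BCL2L2 and BAX against siNeg held without each of the 6 libraries in turn.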

How the data were processed

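RNA from 6 TC32 libraries was sequenced, 2 for each siRNA. The authors deposited FPKM per gene with a 95% interval and a status, and the submitters' processing notes name TopHat2 2.0.13, Cufflinks, Cuffdiff and hg19. Neither the annotation nor the strand setting is given in the sources used. Isoforms were not separated.

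Rows of the same symbol (380 of 26931 symbols) were summed. The 13043 genes reaching 1 FPKM in 2 or more libraries were tested on log2(FPKM + 0.5), which understates changes of low genes. limma 3.58.1 (R 4.3.3) was fitted over all 6 libraries with a variance trend, 3 residual degrees of freedom and two-sided tests. P-values were adjusted by Benjamini-Hochberg over all tested genes, with a threshold of 0.05. On simulated data for siEWSR1 against siNeg, 200 of 13043 genes were changed. Of those changed by a log2 of 0.5, 54% were recovered, with 84% at 1 and 98% at 2. A far larger share of genes was called in the real comparison, so these rates do not give its sensitivity.

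Fragments behind a value were read from the widths of the deposited intervals, as if these held counting error only. They are therefore not counts: for BCL2L11, 1.29 FPKM in siNeg replicate 1 implied 59 and 1.01 FPKM in siNeg replicate 2 implied 94. Starts in the files count from 0 and are given here from 1. Members and gene lists were chosen with earlier results of these data known. Named list genes are up to 2 called genes with the largest rise and 2 with the largest fall per list and siRNA, and the 3 genes nearest in profile to the most changed member of each role. The 16 alternative settings are described in the closing section. Protein sequences were not used here. Some genes of the lists are counted in them but not reported here by name.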

Additional observations from a re-analysis of the deposited data

Results flagged for a closer look

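BCL2L1 differed between the siRNAs by the test of the difference itself: its log2 change was -0.29 for siEWSR1 against siFLI1 (limma, adjusted p = 0.038), with 14.6 and 14.7 FPKM against 17.9 and 18.2. Both groups stood above the siNeg level of 11.4 FPKM. The call was lost in 11 of the 16 alternative settings.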

How the results depend on the processing

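No member changed direction of a called change in any of the 16 settings. Of the members' results under them, 151 of 157 kept their call with siEWSR1, 155 of 157 with siFLI1 and 145 of 157 in the direct comparison. A mean FPKM of at least 5 left 2518 genes called higher with siEWSR1 and 2787 with siFLI1, since fewer genes were tested. It left 2 members called higher with siFLI1, because BAK1 and BCL2L11 fell below this mean and were not tested. BCL2 was not tested there either. TNFSF10 with siEWSR1 was not called under quantile normalization (0.23, adjusted p = 0.274), nor FAS without a filter (adjusted p = 0.0558 with siEWSR1 and 0.0556 with siFLI1).

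The direct comparison, with 103 genes called higher and 401 lower, moved most. It gave 15 and 73 without a filter, 12 and 99 from a fit on the 2 compared groups only, and 185 and 640 with a robust trend, while 209 were higher under quantile normalization and 159 with median-ratio scaling. BCL2L1 was not called, leaving 0 members, without a filter (adjusted p = 0.0568), under quantile normalization (0.0518), without a trend (0.0513), on the 2 groups only (0.0899) or with the replicate block. List genes called lower were 1 with a pseudocount of 1, without a trend and with a robust trend, and those called higher were 1 under quantile normalization and 2 with a robust trend. The cause was not tested.

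Leaving out 1 library in turn gave 3 to 85 genes higher and 2 to 508 lower in the direct comparison, 0 to 1 members lower and 0 to 2 list genes lower. An arm left with 1 library is assumed to vary like the others.

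The replicate block gave 57 genes higher, 262 lower and 0 members lower in the direct comparison (BCL2L1 adjusted p = 0.0677). Same-numbered libraries did not deviate together (correlations -0.137, -0.053 and 0.0689). This cannot show whether they shared a culture or a day, which the labels do not state. With 2 libraries per group, small changes of low genes are the least certain.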
